A study of Mus musculus with 8 samples.

Results

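The comparison described here sets leukaemic progenitors of mice given azacitidine together with AG120 against the same kind of cells from mice given AG120 alone, and so asks what azacitidine adds to DNA methylation once AG120 is present. Its members are autosomal tiles of 1000 bp, counted from position 1 of each chromosome, in which every one of the 4 libraries compared had at least 3 CpG positions and 20 reads. Of 320276 autosomal tiles with a read in the series, 44147 met that rule. A position is a single cytosine, so both strands of a CpG count as separate positions. Single CpG positions with at least 20 reads in each of the 4 libraries numbered 54298 of 3883480. Gene windows, from 1000 bp before to 500 bp after a gene start, were filtered in the same way as tiles, and 13927 of 47042 were measured. Of these windows 10657 sat on an annotated start, and the other 3270 sat on the better covered end of a gene whose strand was not known.

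Azacitidine is a cytidine analogue that is built into nucleic acids and traps the DNA methyltransferases, so that methylation is not fully copied when cells divide. AG120 (ivosidenib) inhibits mutant IDH1, an enzyme that makes 2-hydroxyglutarate, a metabolite that blocks the TET enzymes that oxidise methylated cytosine. The agents therefore act on opposite sides of the same balance, the writing and the removal of CpG methylation. Reduced representation bisulfite sequencing (RRBS) reads CpG-rich restriction fragments after bisulfite has converted unmethylated cytosines, and it covers many gene starts, which are mostly unmethylated in healthy tissue.

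All cells were cKit+/Cd11b- progenitors of a mouse leukaemia named I1DN in the labels, taken from transplanted mice after 5 days of treatment. The groups compared were AG120 (2 libraries) and the combination of AG120 and AZA, as azacitidine is called in the labels (2 libraries), so both carry AG120. Vehicle and AZA alone (2 libraries each) appear only where azacitidine without AG120 is set beside it. The labels do not say whether libraries of a group came from separate mice, so every p-value measures the spread between these libraries, which may be technical.

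Per library, 87741838 to 106766339 autosomal CpG calls were made, and a member tile held a median of 740 to 902 reads. The AG120 libraries covered 1519107 and 1697607 autosomal positions and the combination libraries 1354425 and 1345356, so that both combination libraries reached fewer positions than either AG120 library. Methylated calls made up 40.7 and 49.1% of the total in the AG120 libraries, against 49.8 and 47.3% in the others. The gate of cKit+/Cd11b- cells cannot be checked here, because methylation of a marker gene is not its expression. A value after ± is the SD of the 2 libraries of a group, and values of a pair of libraries are given as replicate 1 and then replicate 2.

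Promoter sequences of 3 genes show what the libraries read. Each line gives the 250 bases before the start on the gene's strand, from RefSeq (GRCm38.p6). Capitals mark CpGs with a position, on either strand, that all 4 libraries read. Sgpl1 (chr10:61147685-61147934, minus strand) had the tile difference with one of the smallest p-values, Clns1a (chr7:97696407-97696656, plus strand) one of the largest gains of a window, and Nrsn2 (chr2:152376606-152376855, minus strand) a loss that held over the positions read in all 4 libraries.
Sgpl1: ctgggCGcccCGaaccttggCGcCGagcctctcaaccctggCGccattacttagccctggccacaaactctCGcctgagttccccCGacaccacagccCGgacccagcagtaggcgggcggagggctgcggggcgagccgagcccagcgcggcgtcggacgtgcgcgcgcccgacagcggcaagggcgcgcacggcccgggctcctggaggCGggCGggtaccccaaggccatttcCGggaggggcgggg
Clns1a: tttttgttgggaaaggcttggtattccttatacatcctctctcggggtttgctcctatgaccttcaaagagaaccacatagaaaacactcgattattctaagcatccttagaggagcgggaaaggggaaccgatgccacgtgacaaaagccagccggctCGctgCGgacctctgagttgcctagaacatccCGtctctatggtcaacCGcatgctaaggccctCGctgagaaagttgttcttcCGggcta
Nrsn2: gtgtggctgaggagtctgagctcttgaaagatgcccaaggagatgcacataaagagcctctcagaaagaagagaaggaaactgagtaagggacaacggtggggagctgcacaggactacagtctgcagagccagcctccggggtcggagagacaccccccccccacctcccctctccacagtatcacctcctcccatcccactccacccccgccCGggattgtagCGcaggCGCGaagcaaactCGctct
In capitals stand 11 of the 31 CpGs before Sgpl1, 6 of the 12 before Clns1a and 5 of the 9 before Nrsn2. Of 390179 covered positions inside the RefSeq promoters of autosomal genes, 99.3% fell on a CpG of that sequence. The site CCGG, at which RRBS fragments are commonly cut (the same letters on both strands), occurs 3 times before Sgpl1 and 2 times each before Clns1a and Nrsn2. It occurs in 53.5% of 31396 autosomal promoter entries of 300 bases.

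Mean methylation was nearly the same with and without azacitidine. With each tile counted once, it was 49.1 and 51.0% in the AG120 libraries and 49.8 and 49.7% in the combination libraries. The combination values lay between the AG120 values, and the difference was −0.334 points (50.1 ± 1.38% against 49.7 ± 0.109%, exact permutation p = 1, two-sided). Over single positions the values were 47.6 and 49.3% against 48.1 and 48.0%, a difference of −0.360 points (exact permutation p = 1). Over gene windows they were 14.4 and 15.7% against 15.2 and 14.8%, a difference of −0.033 points (exact permutation p = 1). With 2 libraries against 2, the smallest p this test can give is 0.333. When every read of the tiles counted instead, the difference was 3.66 points (29.8 and 35.2% against 36.9 and 35.4%, exact permutation p = 0.333). Over positions it was then 0.273 points. Both are opposite in sign to the values with each feature counted once.

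No class of tile stood apart. Tiles under 20% methylated in the Vehicle and AZA libraries, which are mostly gene starts and other CpG-rich stretches, measured 5.15 ± 0.442% with AG120 and 5.32 ± 0.203% with the combination. Tiles of 20 to 80% measured 59.8 ± 3.14% and 59.5 ± 0.544%, and tiles above 80%, the fully methylated bulk of the genome, 91.2 ± 1.42% and 90.4 ± 0.222%. The differences were 0.174, −0.297 and −0.879 points in 17769, 9137 and 17209 tiles. Tiles in gene windows differed by 0.004 points, tiles in gene bodies by −0.523 and intergenic tiles by −0.560. Every class had an adjusted exact permutation p of 1 (Benjamini-Hochberg over the classes). The mean was lower with the combination on 17 of the 19 autosomes, by −1.11 points at most, and on 0 of them did the libraries of the groups separate.

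**Figure D1:**
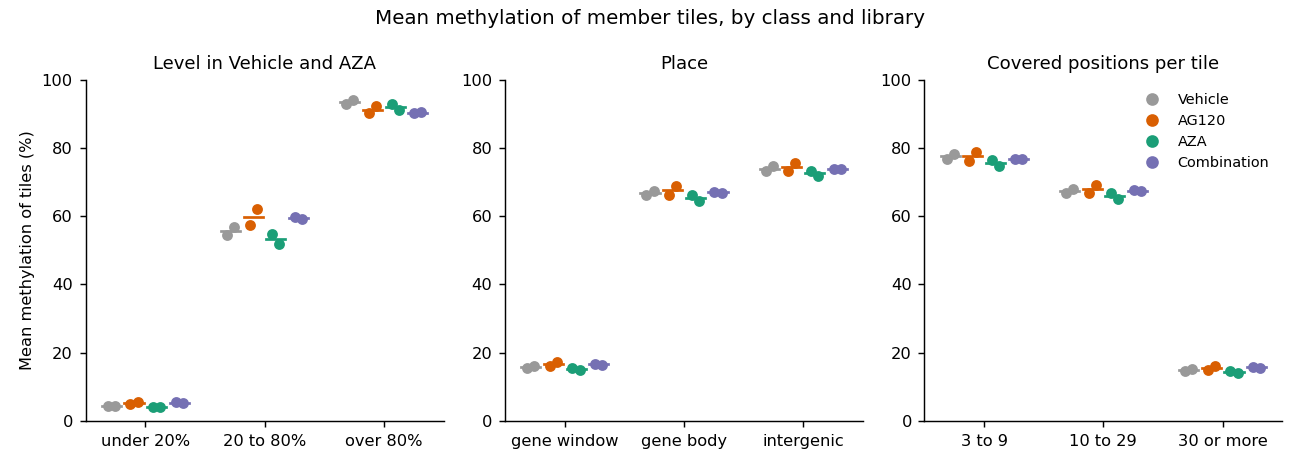
Mean methylation (%) of member tiles in each of the 8 libraries, by level in the Vehicle and AZA libraries, by place and by covered positions per tile; points are libraries and short lines group means. In tiles above 80% the combination libraries (90.2 and 90.5%) lie at or near the lower of the AG120 libraries (90.2 and 92.2%). The means of the AG120 and combination groups stay within 1 point of each other in every panel.

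Libraries with and without azacitidine resembled each other as much as libraries of one group did. Over tiles, the median absolute difference was 4.67 points within a group and 4.70 points between the groups, and Pearson's r was on average 0.895 and 0.894 (across tiles, which are not independent replicates). A pair within a group differed by more than 20 points at 20.3% of tiles and a pair between the groups at 20.5%. At single positions, 12.0 and 12.2% differed by more than 50 points. Levels of single positions were often all or none. At 6288 positions with a mean of 30 to 70% in the Vehicle and AZA libraries, 58.5 and 55.5% stood at exactly 0 or 100% with AG120 and 63.7 and 63.1% with the combination, at a median of 159 to 178 reads. Reads copied by PCR do not each stand for a molecule, and the upper limits printed for levels of 0 therefore cover counting error alone.

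Libraries also often read different positions of the same tile. Libraries that read opposite strands of a CpG share no position there. In 13244 tiles no position was read in all 4 libraries, and in only 14.2% were 10 or more. The mean absolute difference between the groups was 9.17 points in the former and 4.60 points in the latter. With only positions read in all 4 libraries, 20262 tiles kept the filter and their mean differed by −0.471 points. With each such position counted once, the difference was −0.433 points over 26716 tiles.

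No tile and no gene window changed past a false discovery rate of 0.05. By edgeR's quasi-likelihood test, 0 of 44147 tiles (0%) and 0 of 13927 windows (0%) passed, with unadjusted p under 0.05 at 1116 and 422. limma passed 0 of either, with 2313 and 760 under 0.05, and edgeR's likelihood ratio test 0 of either, with 4299 and 1419. DESeq2 passed 11 tiles, 5 higher and 6 lower with the combination, and 0 windows. Without a test, both combination libraries lay below both AG120 libraries at 6825 tiles (15.5%) and above them at 5612 (12.7%). By at least 10 points between the group means, these were 3554 (8.05%) and 3183 (7.21%). Of single positions 2071 (3.81%) lay lower and 2053 (3.78%) higher. Single positions lower by 10 points or more numbered 1761 (3.24%), and those higher 1766 (3.25%).

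The excess of lower windows lay in small differences. Both combination libraries were below both AG120 libraries at 2503 gene windows (18.0%) and above them at 1675 (12.0%). Among windows that differed by less than 1 point, 439 lay lower and 194 higher. Between 1 and 10 points, 1459 lay lower and 878 higher. From 10 points up the counts were alike, 605 lower (4.34%) and 603 higher (4.33%).

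The share of gene windows without a single methylated read was higher in both combination libraries at most depths compared. Of all windows, 22.6 and 21.1% had none in the AG120 libraries and 30.2 and 28.8% in the combination libraries. The latter had fewer reads per window (medians of 1758 and 1755 against 2322 and 2260). Fewer reads make a window without a methylated read more likely, so these shares do not compare equal depths. Drawn down to 20 reads per window, the expected shares were 59.6 and 57.0% against 60.6 and 60.2% (exact permutation p = 0.333, two-sided). Drawn down to 500 reads, possible at 8721 windows, they were 32.1 and 28.8% against 38.8 and 36.7%, a difference of 7.34 points (exact permutation p = 0.333). At 500 reads both combination libraries lay above both AG120 libraries, and tiles gave the same order (24.7 and 22.6% against 30.04 and 28.4% at 13516 tiles). Drawn down to 10 reads the groups overlapped (66.9 and 64.5% against 66.6 and 66.8%, exact permutation p = 1). The 20-read difference of 2.13 points in windows was 3.43 without AG120 replicate 1 and 0.830 without AG120 replicate 2, and that of 1.31 points in tiles 2.20 and 0.421. The 500-read depth was chosen after the data were seen. The number of positions covered was lower in the same libraries, and its part in these shares was not tested.

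Window by window, 669 gene windows (4.80%) had no methylated read in either combination library and at least 1 in both AG120 libraries. The reverse held at 252 windows (1.81%). These counts use all reads, and the combination libraries had fewer reads per window, so they do not compare equal depths. At the 669 windows the AG120 level was a median of 1.70%, and it exceeded 10% at 37 windows. In the reverse case the combination level was a median of 2.20%, and it exceeded 10% at 35 windows. Of the 669 windows, 667 had 20 reads in all 8 libraries; of these, 36 had no methylated read in either library with AZA alone, and 387 had at least 1 in both.

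**Figure D2:**
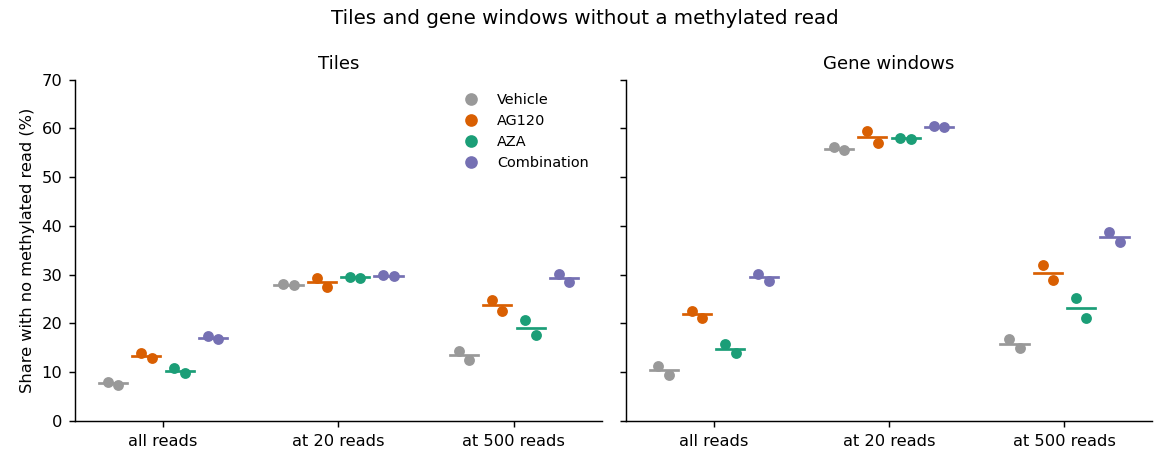
Share (%) of member tiles and gene windows with no methylated read in each of the 8 libraries, with all reads and for draws of 20 and of 500 reads; points are libraries and short lines group means. At 500 reads the combination libraries lie at 38.8 and 36.7% of windows and the AG120 libraries at 32.1 and 28.8%.

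The windows with the smallest edgeR p-values belonged to gene starts with a few percent of methylation under AG120 and almost none with the combination. None passed the false discovery rate (adjusted p = 1 by edgeR for each window and tile named in the text). B230354K17Rik, a transcript that starts beside Cdc5l, measured 2.50 and 4.18% under AG120 against 0.01 and 0% with the combination, over 7768 to 10400 reads (window chr17:45432831-45434330). The difference was −3.34 points, but over the 15 positions read in all 4 libraries every library was at 0. Abhd17b, which encodes an enzyme that removes palmitate from proteins, shares a start region with 1110059E24Rik on the other strand. Its window (chr19:21652309-21653808) measured 1.55 and 3.63% against 0.01 and 0%, a difference of −2.58 points. Over 36 positions read in all 4 libraries it measured 0 and 5.84% against 0.06 and 0%, so the groups overlapped there and AG120 replicate 2 carried the difference of −2.89 points (−1.22 with each position counted once). For 1110059E24Rik the difference was −2.72 points.

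Tiles with the smallest p gave the same picture at Sgpl1 and the opposite at Hmgxb4. Sgpl1 encodes the lyase that ends sphingosine-1-phosphate signalling. Its tile (chr10:61147001-61148000) measured 2.92 and 2.40% under AG120 against 0.01 and 0% with the combination, a difference of −2.65 points, and its 47 positions read in all 4 libraries differed by −2.54 points. In the sequence printed for Sgpl1, the CpGs in capitals measured 7.61 and 12.2% under AG120 against 0 and 0% with the combination, which allows up to 0.125% over 2 libraries. Each AG120 library owed its level there to 1 CpG, which was methylated in 100% of 63 reads 239 bp before the start in replicate 1 and in 98.4% of 186 reads 151 bp before it in replicate 2. Each library was at 0% at the other's CpG. The third tile, at chr17:45433001-45434000, lies in the B230354K17Rik window and measured 2.30 and 4.87% against 0.01 and 0%. Hmgxb4, a gene for an HMG-box protein, went the other way: its tile (chr8:74994001-74995000) measured 0 and 0% under AG120 against 9.98 and 4.60% with the combination. With AZA alone that tile measured 2.75 and 1.99%, and with Vehicle 0.03 and 0.05%. With each of its 9 shared positions counted once, the combination libraries measured 11.1 and 0%.

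Larger differences with tight replicates occurred about equally in both directions. Group means at least 10 points apart, no overlap and libraries of a group within 10 points of each other were found at 159 windows lower (1.14%) and 148 windows higher (1.06%). The largest losses were at Ptprcap (100 and 99.2% against 22.2 and 20%), Gm11227 (100 and 98.7% against 22.0 and 28.5%), Gm5185 (100 and 100% against 51.2 and 57.3%), Gm26947, St6gal2 and 1700020D05Rik. Ptprcap encodes a partner of the leukocyte phosphatase CD45, and St6gal2 a sialyltransferase. Ptprcap and Gm26947 were thinly read: Ptprcap, a gene-end window, had 27 to 381 reads per library and only 1 position read in all 4, and Gm26947 had 24 to 210 reads and no such position. St6gal2 measured 65.4 and 70.04% against 35.0 and 29.2%, with 52 reads in AG120 replicate 1, yet with each of its 4 shared positions counted once it differed by 6.83 points, in the other direction.

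The largest gains were at Gm19026, Clns1a, Gm30729, Mdk, Gm33148 and LOC105247329. Gm19026, a gene-end window, measured 16.8 and 17.0% under AG120 against 71.9 and 71.9% with the combination. Over its 11 shared positions it measured 27.3 and 72.7% against 81.8 and 63.5%. The groups overlapped there, and the gain was 22.7 in place of 55.0 points. Mdk encodes midkine, a heparin-binding growth factor, and its gene-end window measured 46.4 and 43.7% under AG120 against 97.0 and 89.5% with the combination, over as few as 28 reads. Over its 7 shared positions Mdk measured 46.4 and 84.1% against 89.3 and 85.7%, and the gain was 22.2 in place of 48.1 points. Gm33148 went from 0 and 0% to 45.2 and 49.7% over 332 to 560 reads at 4 positions read in all 4 libraries. Gm30729 (chr17:32112518-32114017) measured 7.38 and 6.83% against 60.3 and 58.1%. With each of its 6 shared positions counted once, it measured 18.2 and 16.7% against 66.7 and 64.5%, so the groups did not overlap there. AG120 replicate 2 had only 10 reads at most of these positions, and 228 of its 278 reads lay at the last. The combination libraries measured 0 and 100% at a shared position and 100 and 0% at another. By reads, the shared positions measured 20 and 43.2% with Vehicle and 60.9 and 45.4% with AZA alone.

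At Clns1a the gain did not hold over shared positions. Clns1a encodes a subunit of the complex that methylates spliceosomal proteins, and its window also covers the start of Rsf1os2. The window (chr7:97695657-97697156) measured 7.94 and 4.71% under AG120 against 55.2 and 62.8% with the combination, a difference of 52.6 points, while the Vehicle and AZA libraries measured 0.20 to 3.93%. Positions more than 300 bp before the start were nearly fully methylated with the combination (99.8 and 99.8%) and 66.6% methylated in AG120 replicate 1, and AG120 replicate 2 had no read there. Those positions took 55.2 and 62.8% of the window's reads with the combination, against 11.4 and 0% with AG120. Closer to and past the start, the levels were 0.43 and 4.71% against 0 and 0.21%. Over the 12 positions read in all 4 libraries the difference was −0.34 points, and the CpGs in capitals in the printed sequence measured 0.73 and 0% against 0 and 0%.

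**Figure D3:**
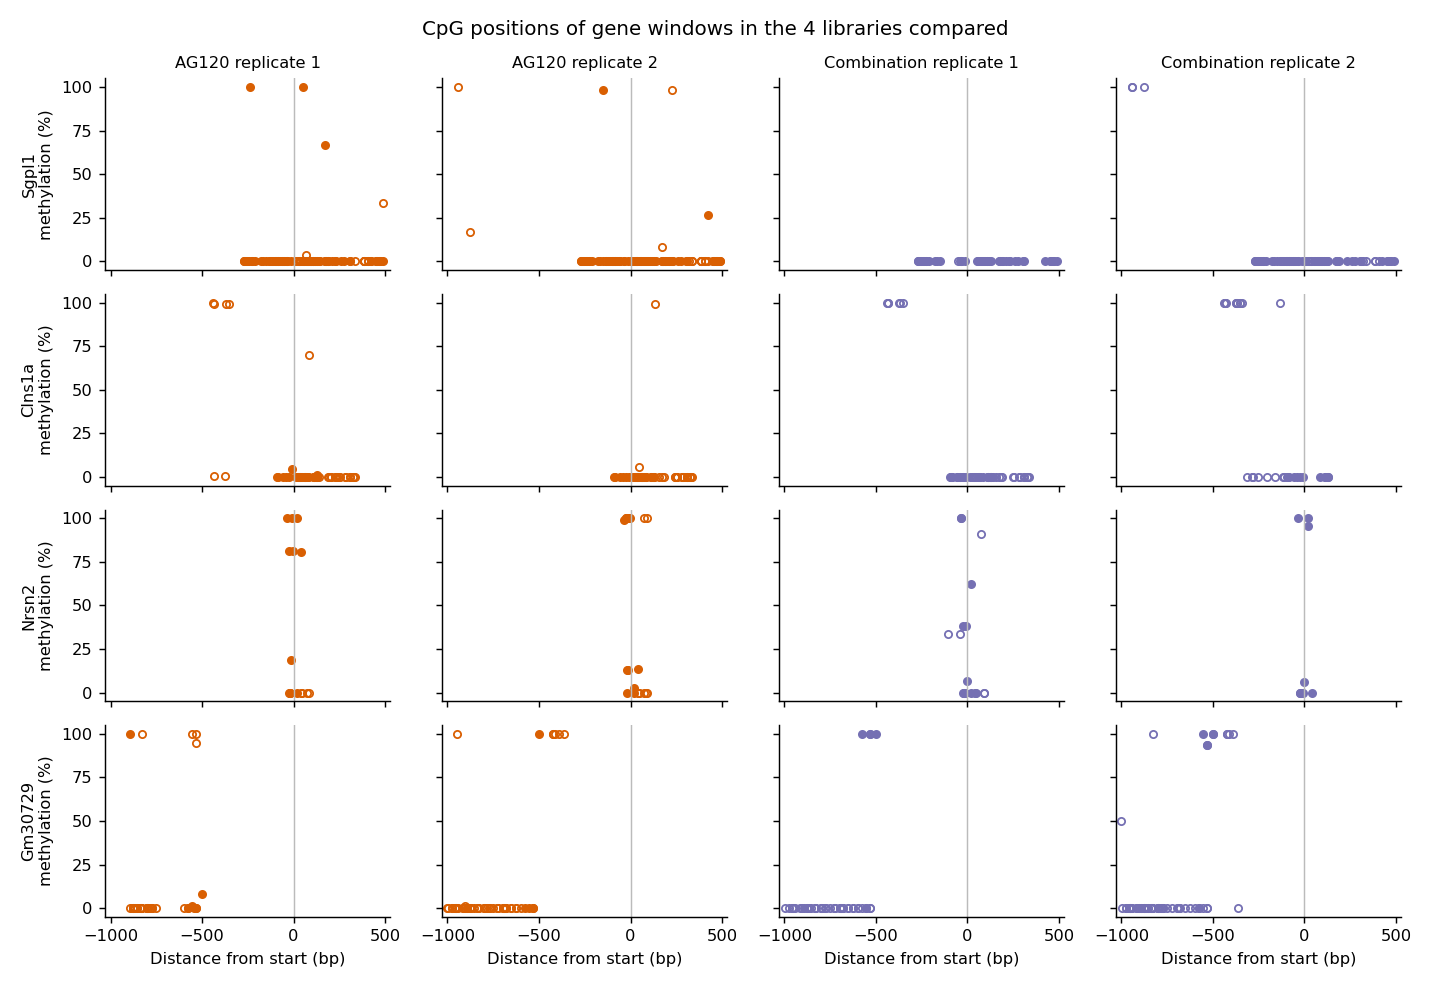
Methylation (%) of single CpG positions against distance from the gene start (bp) at Sgpl1, Clns1a, Nrsn2 and Gm30729 in the 4 libraries compared; filled points are positions read in all 4 libraries, open points the others. Most points lie at 0 or 100%, and the methylated points more than 300 bp before the Clns1a start, where AG120 replicate 2 has no read, are open.

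Some differences held over the positions read in all 4 libraries. Of the 159 lower and 148 higher windows, 86 and 85 had at least 5 such positions. Over those positions by reads, 35 remained lower and 37 higher by at least 10 points with no overlap. With each position counted once as well, 25 remained lower and 23 higher. The genes named in the next sentences were chosen from these 48 after their values were seen, so the differences are a description.

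Among the lower ones, Nrsn2, which encodes a neuronal vesicle protein, measured 39.6 and 48.8% under AG120 against 20.3 and 26.3% with the combination (window chr2:152376106-152377605). Its 9 positions in capitals in the printed sequence measured 45.1 and 66.1% against 16.4 and 12.8%, although AG120 replicate 1 had 133 reads over all of them. S1pr2, a receptor for sphingosine-1-phosphate, measured 15.9 and 12.1% against 0 and 0%, which allows up to 0.266% over both combination libraries. At 2 of its shared CpGs the AG120 libraries differed: 11 bp before the start the level was 100% in replicate 1 and 0% in replicate 2, and 16 bp after it 0 and 99.3%, where the combination libraries had 9 and 5 reads. Ptp4a3, a phosphatase gene active in many tumours, measured 98.9 and 100% against 77.0 and 68.6%, and Rab37, a small GTPase gene, 13.4 and 16.3% against 0.59 and 0.96%. Hoxc11, a homeobox gene, measured 22.2 and 17.9% against 11.3 and 4.29%. The windows of Ptp4a3, Rab37 and Hoxc11 are gene-end windows. In each of these the groups did not overlap, by construction of the choice.

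Among the higher ones, Tlx3, a homeobox gene that is switched on by translocation in T-cell leukaemia, measured 16.6 and 19.2% under AG120 against 34.9 and 43.4% with the combination over 6124 to 9240 reads. Dpysl2, a gene of axon guidance, measured 6.19 and 12.8% against 35.5 and 41.4%. Actr3b, which encodes a subunit of an actin-branching complex, measured 0.80 and 6.98% against 28.5 and 24.3%. The window at Mir9-3, a gene of the miR-9 family, measured 15.3 and 5.53% against 35.1 and 34.9%. The windows of Dpysl2, Actr3b and Mir9-3 are gene-end windows. With Vehicle, the whole Tlx3 window measured 19.3 and 16.1% and with AZA alone 46.5 and 20.4%. The combination values lay within the range of AZA alone there. Over the 23 positions of Tlx3 read in all 4 libraries compared they did not. There AZA alone measured 12.1 and 2.08%, and the combination 34.1 and 36.2%.

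Gene lists were read against all gene windows, of which 51.7% were lower and whose median difference was −0.03 points. Of 545 list entries 362 were measured, and 0 members of the 16 lists passed the false discovery rate by edgeR. Among 16 genes of stem and progenitor cells, 8 were lower and 8 higher with a median of 0.01 points. Runx1, a master regulator of blood formation, measured 2.30 and 1.44% against 0.22 and 0%, and Flt3, a receptor of early progenitors, 3.01 and 2.05% against 0.43 and 0%. Mecom, a stem-cell zinc finger gene, measured 6.21 and 4.44% against 48.4 and 16.4%. Kit, the receptor used for the gate, overlapped (1 and 5.87% against 3.33 and 16.8%). Itgam, which encodes Cd11b, was not measured.

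Of 11 myeloid genes 7 were lower and 4 higher (median −0.21 points, and from −1.82 to −0.005 points with 1 library left out). Both combination libraries lay below both AG120 libraries at 4 of the 11, against 18.0% of all windows. Those were Cebpa, the main transcription factor of granulocyte formation (2.59 and 1.91% against 0.03 and 0.14%), Klf4, a factor of monocytes (6.45 and 4.40% against 0.91 and 0%), Jun and Gfi1. Over the 13 shared positions of Cebpa the difference was −0.14 points. Of all windows, 18.0% lay lower and 12.0% higher without overlap. Of other cell types, 0 of 7 lymphoid, 0 of 4 erythroid and megakaryocytic and 0 of 6 stromal and endothelial genes lay lower. In the same order, 1, 1 and 2 of these genes lay higher. Their mean levels per library were 3.06 to 8.92%, 12.2 to 34.5% and 11.7 to 27.2% over the 4 libraries, and their part in the other values was not tested. Those with the smallest p were Cd4, Itga2b and Nes. Cd4, a T-cell receptor partner, measured 0 and 0.36% against 0 and 0% in a gene-end window. Itga2b, a platelet integrin gene, measured 0.34 and 0% against 3.71 and 2.79%. Over its 9 shared positions it measured 0 and 0% against 3.72 and 0%, so the groups did not separate there. Nes, an intermediate filament gene, measured 4.0 and 0% against 6.18 and 33.2%.

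Among genes of apoptosis, 12 of 20 were lower and 8 higher, with a median of −1.30 points, and 8 lay lower without overlap and 2 higher, where 18.0 and 12.0% of all gene windows did. Bok and Bax, which open the mitochondrial membrane, measured 12.7 and 10.4% against 1.02 and 0.58%, and 15.6 and 8.49% against 7.86 and 1.78%. Apaf1, the scaffold of the apoptosome, measured 6.86 and 3.21% against 0 and 0%, which allows up to 0.07% over both combination libraries. Over its 11 shared positions Apaf1 measured 75.6% in AG120 replicate 1 and 0% in the other 3 libraries. Bcl2 and Bcl2l1, which protect cells from apoptosis, measured 2.26 and 3.39% against 0.01 and 0.87%, and 1.43 and 4.19% against 0 and 0.47%. Mcl1, also protective, was higher (0.45 and 0.16% against 0.69 and 2.37%). Leaving out 1 library at a time, the median of this list ran from −1.79 to −0.47 points.

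Of 25 genes of DNA methylation and IDH, 15 were lower and 9 higher (median −0.32 points). Without overlap, 4 of the 25 lay lower and 0 higher, against 18.0 and 12.0% of all windows. Those 4 were Tet2, an enzyme that oxidises methylcytosine (0.31 and 1.03% against 0 and 0%), Tdg, which excises its products (1.21 and 2.31% against 0 and 0%), Uhrf1, which brings DNMT1 to newly copied DNA (0.42 and 0.94% against 0 and 0%), and the methyltransferase gene Dnmt3b (0.88 and 1.49% against 0 and 0.47%). Over the 10 shared positions of Tet2 all 4 libraries were at 0. Dnmt1 and Dnmt3a, which like Dnmt3b encode DNA methyltransferases, overlapped (0 and 0.32% against 0 and 0.13%, and 2.36 and 1.39% against 0.02 and 1.64%). Idh1 was at 0 and 0.52% against 0 and 0%. Of 25 genes that carry or convert azacitidine and pyrimidines, 13 were lower and 8 higher (median −0.02 points). Without overlap, 5 of the 25 lay lower and 0 higher, against 18.0 and 12.0% of all windows. Slc29a1, a nucleoside transporter, measured 11.8 and 10.5% against 1.85 and 0.295%. Uck1, a kinase that activates azacitidine, measured 8.59 and 5.00% against 0.07 and 0.23%, with 40 reads in AG120 replicate 2. Cad, the enzyme that starts pyrimidine synthesis, measured 13.7 and 1.13% against 0 and 0.17%. In AG120 replicate 1 that level stood on a position 381 bp before the start, methylated in 99.7% of 389 reads, where replicate 2 had 0% of 259 reads. With shared positions counted once Cad differed by −2.004 in place of −7.32 points.

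Methylated gene windows did not move together. The 11 germline genes, which are silenced by methylation in somatic cells, had means of 94.2 and 92.1% under AG120 against 96.3 and 92.2% with the combination, with 5 lower and 6 higher. Tdrd1, a gene of the piRNA pathway, was the one with the smallest p among them (99.4 and 99.4% against 90.1 and 89.4%). Of 15 imprinted genes, which are methylated according to parental origin, 6 were lower and 9 higher with a median of 6.74 points. That median rested on the libraries used and ran from −0.39 to 4.91 points with each left out in turn. The window of H19, a maternally expressed transcript, is a gene-end window. H19 measured 99.7 and 79.4% against 52.6 and 2.70%, where the latter had 74 reads. Plagl1, a zinc finger gene, measured 57.4 and 48.8% against 94.0 and 71.2%. In the Vehicle and AZA libraries H19 ranged from 47.9 to 99.1%. Of 82 developmental transcription factors 40 were lower and 42 higher (median 0.12 points). Without overlap, 16 lay lower and 19 higher, where 18.0 and 12.0% of all gene windows did. Pax3, a factor of neural crest and muscle, measured 0.08 and 1.24% against 31.5 and 17.0% in a gene-end window. With each shared position counted once, Pax3 differed by 5.14 points.

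Of 31 tumour suppressors 14 were lower and 17 higher (median 0.40 points), and Dapk1, a kinase gene that promotes cell death, had the smallest p (12.2 and 2.21% against 0 and 0.04%), with a difference of 0 over its 4 shared positions. Of 39 cell cycle genes 18 were lower and 21 higher, of 37 RAS and MAPK genes 17 and 18, and of 19 genes of interferon and nucleic acid sensing 11 and 7. Mcm2, a subunit of the replication helicase, measured 0.07 and 0.17% against 5.06 and 3.08%, and Spred1, an inhibitor of RAS signalling, 0 and 0% against 2.83 and 0.87%. Irf2, an interferon regulatory factor, measured 0.03 and 0% against 0.33 and 13.6%, and Nras, a RAS gene, 0 and 7.89% against 0 and 0%. Over shared positions Spred1 measured 2.68 and 0% with the combination, Mcm2 0 and 5.404%, Irf2 0 and 20%, and Nras was at 0 in all 4 libraries. Of 14 housekeeping genes 3 were lower and 11 higher, with a median of 1.99 points. Their mean was 0.30 and 1.21% under AG120 against 3.70 and 1.92% with the combination, and the median ran from −0.06 to 1.83 points with each library left out.

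**Figure D4:**
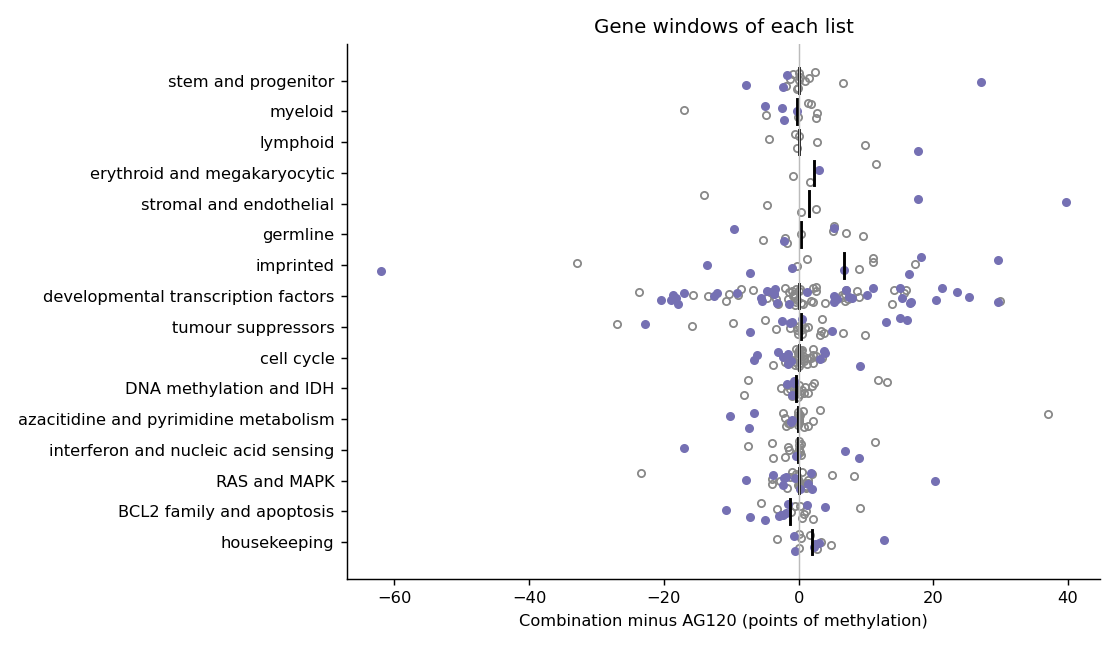
Difference between combination and AG120 (points of methylation) at the measured gene windows of each list; filled points are windows whose groups do not overlap, open points the others, and black bars list medians. Medians lie near 0 for most lists, from −1.30 points for apoptosis genes to 6.74 points for imprinted genes.

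Azacitidine without AG120 was compared at the 34207 tiles that met the filter in all 8 libraries, where the differences share no library. The mean difference was −0.162 points between combination and AG120 and −1.07 points between AZA and Vehicle. Across tiles the 2 differences had a Pearson's r of −0.022, a description over tiles that are not independent. Of the 5447 tiles lower in the combination (15.9% of all), 18.7% were lower and 13.6% higher with AZA alone. Of the 4379 tiles higher in the combination (12.8%), 20.5% were lower and 12.2% higher with AZA alone. Among all tiles 19.2% were lower and 12.4% higher with AZA alone, so without regard to size the tiles selected in either direction were near the background. By at least 10 points, 2702 tiles were lower with AZA alone (7.90% of all) and 1806 higher (5.28%). Of these, 306 tiles were lower in both settings, 12.1% of the 2538 lower in the combination and 11.3% of the 2702 lower with AZA alone, so this share was above that of all tiles. Higher in both were 199 tiles, 8.53% of the 2332 higher in the combination and 11.02% of the 1806. In opposite directions, 258 of the 2538 tiles lower in the combination were higher with AZA alone. Of the 2332 tiles higher in the combination, 345 were lower with AZA alone. Both of these shares, and the share higher in both settings, were likewise above those of all tiles. Whether these counts differ from one another was not tested. A term for the difference between the differences passed the false discovery rate at 0 of 34207 tiles by edgeR (1030 with unadjusted p under 0.05) and at 0 by limma (1839).

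**Figure D5:**
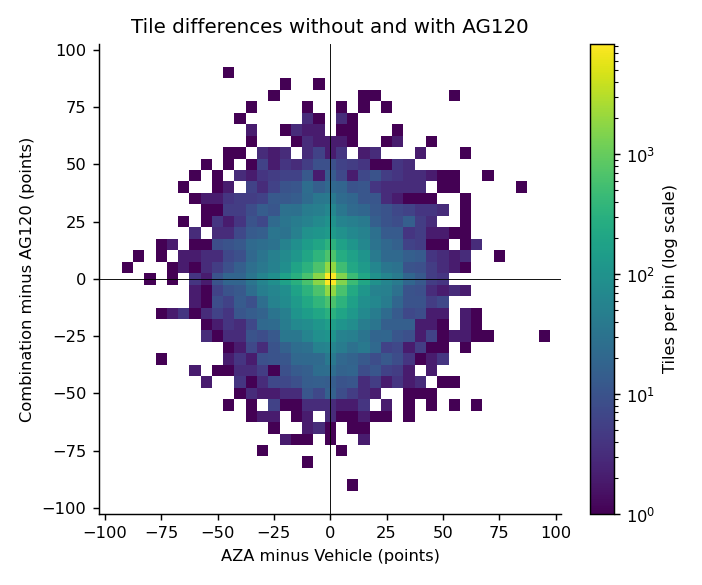
Difference between combination and AG120 against the difference between AZA and Vehicle (both in points) at 34207 tiles; colour gives the number of tiles per bin of 5 points on a log scale. The cloud is centred near 0 on both axes and shows no slope (Pearson's r −0.022).

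Of 13510 tiles whose libraries lay within 10 points of each other in all groups, 25 were lower by 10 points or more in both settings and 11 higher in both, while 14 and 21 moved in opposite directions. The largest shared loss was at an intergenic tile, chr8:34290001-34291000, with 100 and 99.9% under AG120 and 65.8 and 68.0% with the combination. Over its 3 shared positions it measured 100 and 66.7% against 66.7 and 66.5%, a loss of 16.7 points in which AG120 replicate 2 stood level with the combination. The same tile measured 100 and 100% with Vehicle and 80 and 80.3% with AZA alone. A tile in the body of Tmem120b (chr5:123110001-123111000), which encodes a membrane protein, measured 98.9 and 99.6% against 78.9 and 85.1%, but its 4 positions read in all 4 libraries were at 100% throughout. A tile in the gene body of Gm12426 (chr4:47201001-47202000) measured 44.0 and 37.8% against 22.6 and 23.3%. Counted once, its 5 shared positions measured 21.3 and 21.4% against 13.6 and 21.1%, a difference of −3.98 points. The largest shared gain was at an intergenic tile, chr13:8024001-8025000, with 67.6 and 69.2% against 99.5 and 94.2%, and 71.3 and 70.9% with Vehicle against 98.8 and 100% with AZA. With its 11 shared positions counted once, the gain was 9.91 points. Of the other tiles with the largest shared differences, chr9:64067001-64068000 was lower, and chr17:10370001-10371000, chr8:92444001-92445000 and chr10:110790001-110791000 were higher. With shared positions counted once, chr9:64067001-64068000 and chr10:110790001-110791000 changed sign (0.926 and −14.1 points). The gain at chr17:10370001-10371000 was then 3.38 in place of 24.8 points. At chr8:92444001-92445000 the only shared position was at 100% in all 4 libraries, so no gain was seen there.

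Single positions gave the only calls of edgeR's quasi-likelihood test. It passed 8 of 54298 positions (0.0147%), 7 lower and 1 higher, with 73 at an unadjusted p under 0.05, and limma passed 0, with 2226. With each library left out in turn, edgeR passed 3 to 11 positions, and without combination replicate 2 the 3 calls were all higher. None of the 8 positions was called in all 4 of these fits, and each was called in at most 2. The position with the smallest p, chr2:98662566, measured 88.1 and 89.5% under AG120 against 84.5 and 84.0% with the combination, a fall of 4.56 points at 71022 to 97663 reads per library (adjusted p = 1.46e-08 by edgeR, and 1 without either combination library). Also on chromosome 2, chr2:98662686 measured 89.1 and 89.9% against 87.5 and 86.9% (adjusted p = 0.000115 by edgeR) and chr2:98667195 rose from 79.2 and 89.4% to 99.8 and 94.8%. These 3 positions lie 35404 to 40033 bp from the nearest annotated gene and were read far more deeply than others, with a median of 140 to 156 reads per position in these libraries.

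In genes, the called positions were chr11:3193474 in Sfi1, which encodes a centrosome protein (100 and 100% against 99.9 and 95.9%), and chr14:48669613 in Otx2os1 (11.3 and 0.39% against 0 and 0%). Outside genes, chr16:9295390 measured 99.6 and 98.4% against 93.2 and 93.4%, chr13:3384150 measured 100 and 99.9% against 92.3 and 79.8%, and chr13:114782220 measured 100 and 100% against 62.9 and 91.7%. All 8 called positions were among the most deeply read, at or above the 98.6th percentile of positions by reads.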

How the data were processed

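RRBS libraries of 4 groups with 2 libraries each were used. The authors deposited, per sample, counts of methylated and unmethylated reads at each CpG position (mm10, per the submitters' processing notes). Those notes name Bismark 0.22.3, Trim Galore 0.4.4, edgeR 3.32 under R 4.0.2, and SAMtools 1.4.1, without their settings; handling of PCR duplicates is not given in the sources used here. Groups were taken from the sample labels.

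Counts were summed over autosomal positions in tiles of 1000 bp and in gene windows, with at least 3 positions and 20 reads in each of the 4 libraries compared. The level of a feature is its methylated share of reads. Means over features were compared by exact permutation (2 libraries against 2, two-sided). Features were tested with edgeR 4.0.16 in R 4.3.3 (quasi-likelihood, methylated and unmethylated counts of each library, a false discovery rate of 0.05 by Benjamini-Hochberg over all features). limma 3.58.1 (log2 ratios with a pseudocount of 2) and DESeq2 1.42.0 were alternatives, with other coverage minimums, tile sizes, all 8 libraries in the fit, a replicate block and each library left out. The scripts were tested on simulated data.

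Named features were the 3 windows and 3 tiles with the smallest p where fewer than 3 passed, the 6 largest losses and gains with tight replicates, 4 tiles in each direction shared with azacitidine alone, the member of each list with the smallest p, and 7 genes of interest. Members and gene lists were chosen with earlier results of these data known, and further list members were named after their values were seen. Restricting to shared positions, counting each once, limma for positions and for the difference of differences, and the 500-read depth were added after seeing the data. Symbols of 543 of 545 list entries matched the gene table. A level of 0 allows up to 3 reads of the total.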

Additional observations from a re-analysis of the deposited data

Results flagged for a closer look

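At 5 of the windows and tiles named in the report every library moved one way between AG120 and the combination and the opposite way between Vehicle and AZA. Over all tiles of the 8-library filter, 742 were lower in the combination and higher with AZA without overlap, and 899 the reverse. The 742 were 13.6% of the 5447 lower in the combination, where 12.4% of all tiles were higher with AZA. The 899 were 20.5% of the 4379 higher in the combination, where 19.2% of all tiles were lower with AZA. For single windows and tiles this difference of directions was not tested beyond the term over tiles given in the report, which passed at 0 of 34207 tiles by edgeR.

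B230354K17Rik differed by −3.34 points with AG120 present and by 0.927 points between AZA and Vehicle. The tile chr17:45433001-45434000 in the same place differed by −3.58 and 1.61 points. Gm5185 differed by −45.8 points with AG120 and by 27.4 points without it (56.6 and 42.8% with Vehicle, 71.0 and 83.2% with AZA). Gm33148 differed by 47.4 and −19.9 points, where Vehicle replicate 1 had only 4 reads. Tbp, a housekeeping gene that encodes a general transcription factor, differed by −0.626 points with AG120 (0.39 and 0.86% against 0 and 0%). Without AG120, Tbp differed by 3.45 points (0.06 and 0.05% against 4.01 and 3.01%). No position of the Tbp window was read in all 4 libraries compared, and combination replicate 1 had 275 reads there. Gm5185 had 2 such positions, without a read in either AZA library.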

How the results depend on the processing

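Calls over tiles and windows stayed at 0 under every edgeR and limma setting run; DESeq2 passed 11 tiles. limma passed 0 positions. With every read counted, mean differences changed sign over tiles (3.66 points), positions (0.273), tiles of 20 to 80% (1.22), gene bodies (3.41), intergenic tiles (0.678) and tiles of 10 to 29 positions (0.612). The cause was not tested.

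Leaving out 1 library at a time, the mean difference ran from −1.31 to 0.645 points over tiles and from −1.20 to 0.478 over positions, positive only without AG120 replicate 2. By class it ran from −0.138 to 0.487 (under 20%), −2.52 to 1.93 (20 to 80%), −1.88 to 0.122 (over 80%), −0.623 to 0.632 (gene windows), −1.77 to 0.727 (gene bodies), −1.63 to 0.511 (intergenic), −2.19 to 0.489, −1.74 to 0.638 and −0.366 to 0.737 (3 to 9, 10 to 29 and 30 or more positions). Chromosomes with a lower mean ran from 0, without AG120 replicate 2, to 19. Called positions ran from 3 to 11. Tiles without overlap ran from 28.01 to 30.2% lower and 23.8 to 26.8% higher, since fewer libraries have to separate. List medians ran from −0.520 to 0.0431 (stem and progenitor), −1.82 to −0.00491 (myeloid), −0.476 to 0 (DNA methylation and IDH), −0.283 to 0 (azacitidine metabolism), −0.0405 to 2.18 (lymphoid), −0.224 to 13.4 (erythroid), −5.43 to 12.9 (stromal), −2.22 to 1.67 (germline), −0.386 to 4.91 (imprinted), −0.516 to 1.91 (developmental factors), −0.186 to 1.04 (tumour suppressors), −0.255 to 0.111 (cell cycle) and −0.0644 to 1.83 (housekeeping).

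Of 192 values of 48 single windows and tiles with a library left out, 190 kept their sign; Dnmt1 ran from −0.253 to 0.0635, the latter without AG120 replicate 2, and Kit from −0.105, without combination replicate 2, to 13.4. Over shared positions, by reads and then counted once, signs changed at Clns1a and Rsf1os2 (−0.339 and −0.238), Nes (−4.41 both ways) and Dnmt3a (2.25 and 1.65), and counted once also at St6gal2 (6.83), chr9:64067001-64068000 (0.926) and chr10:110790001-110791000 (−14.1).

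Replicate numbers did not pair the libraries: the correlation of same-numbered deviations was −0.00399 over tiles. With the replicate block, edgeR passed 0 tiles and 0 windows. Having 2 libraries in a group limit every statement, and no exact test here can go below 0.333.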
